A study of Mus musculus with 2 samples.

Results

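Cytochrome c oxidase, complex IV of the respiratory chain, passes electrons from cytochrome c to oxygen. It is built from a mitochondrially encoded core and small nuclear-encoded subunits, and several of the nuclear subunits exist as isoforms made from separate genes that fill the same position in the complex. The genes described here are 5 pairs: Cox4i1 and Cox4i2, Cox6a1 and Cox6a2, Cox6b1 and Cox6b2, Cox7a2 and Cox7a1, and Ndufa4 and its relative Ndufa4l2. Whether Ndufa4l2 fills the position of Ndufa4 in the complex was not tested. As background, Cox4i2 is known from lung and from oxygen-sensing cells and is induced by low oxygen, Cox6a2 and Cox7a1 are the isoforms of heart and skeletal muscle, and Cox6b2 is that of testis. Ndufa4 was first assigned to complex I and later to complex IV, and Ndufa4l2 is a target of the hypoxia-inducible factor HIF-1. All 10 genes were found by symbol among the 54680 loci of the deposited table. They were chosen partly because Cox6a2 has one of the lowest ratios between the libraries, so every value below that compares the libraries is a description.

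RNA sequencing compared CT26 cells, a mouse colon cancer line, carrying a lentiviral short hairpin RNA against Setdb1 (CT26shSetdb1) with CT26 cells carrying the empty knockdown vector (CT26shCtrl). Setdb1 encodes a histone H3 lysine 9 methyltransferase. Both cultures grew in RPMI 1640 with 10% serum for 6 days. By then the submitters call the knockdown cells differentiated, and neither a clone nor an oxygen tension is named. Each group had 1 library, of 18421604 reads for the control and 19045830 for the knockdown, so no difference has a replicate check and all values describe these 2 libraries. Setdb1 itself had 1340 reads in the control and 317 in the knockdown library. Of 11 markers of colonic epithelium, 4 (Epcam, Cdh1, Cdx1 and Lgr5) had 0 reads in both libraries and 3 reached 1 FPKM. FPKM is a level scaled by gene length and by a depth shared by both libraries. These 3 were at least 2-fold higher in the knockdown library, against 6.81% of all genes at 1 FPKM or more. Their log2 ratios of (FPKM + 1) were 1.23 for Krt18, 1.30 for Krt19 (1 and 53 reads, at 1 FPKM only in the knockdown library) and 2.59 for Krt20. The 8 markers below 1 FPKM summed to 16 reads in the control and 34 in the knockdown library. The part of these markers in the results below was not tested.

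Whether reads of the isoforms can be told apart depends on their sequences, so coding sequences of both pairs whose scarcer isoform differed at least 2-fold are shown, taken from the principal GENCODE M21 transcripts (GRCm38), 5′ to 3′. All run from start to stop codon except Cox6a1, which is shown from base 40 to base 339. Capitals mark the longest stretch that both members of a pair share without a mismatch.
Cox6a1: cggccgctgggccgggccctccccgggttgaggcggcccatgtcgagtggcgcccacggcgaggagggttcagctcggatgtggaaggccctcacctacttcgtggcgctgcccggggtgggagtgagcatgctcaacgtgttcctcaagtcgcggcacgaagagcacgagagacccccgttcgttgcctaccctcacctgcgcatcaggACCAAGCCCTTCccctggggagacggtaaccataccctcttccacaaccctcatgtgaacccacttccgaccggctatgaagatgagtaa
Cox6a2: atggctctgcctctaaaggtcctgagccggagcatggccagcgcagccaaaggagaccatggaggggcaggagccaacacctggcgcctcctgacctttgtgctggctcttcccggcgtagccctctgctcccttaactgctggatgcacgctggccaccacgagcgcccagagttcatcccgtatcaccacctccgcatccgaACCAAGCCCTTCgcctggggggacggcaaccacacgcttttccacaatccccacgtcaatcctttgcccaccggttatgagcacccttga
Cox7a2: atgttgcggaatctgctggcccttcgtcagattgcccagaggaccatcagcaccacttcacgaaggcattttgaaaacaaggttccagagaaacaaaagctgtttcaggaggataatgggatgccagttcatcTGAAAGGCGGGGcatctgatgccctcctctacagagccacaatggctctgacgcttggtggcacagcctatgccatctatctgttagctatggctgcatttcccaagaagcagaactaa
Cox7a1: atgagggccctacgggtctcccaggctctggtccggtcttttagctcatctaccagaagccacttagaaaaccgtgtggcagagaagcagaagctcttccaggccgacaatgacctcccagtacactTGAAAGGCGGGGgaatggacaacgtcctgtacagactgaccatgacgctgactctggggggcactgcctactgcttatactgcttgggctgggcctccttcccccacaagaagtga
Cox6a1 and Cox6a2 were identical at 192 of 294 aligned bases (65.3%), and their longest shared stretch was 12 bases. For Cox7a2 and Cox7a1, 156 of 242 aligned bases (64.5%) were identical, and the longest shared stretch was again 12 bases. Identity was 69.8% for Cox4i1 and Cox4i2 and 64.6% for Cox6b1 and Cox6b2, each with a shared stretch of 14 bases. Ndufa4 and Ndufa4l2 were the closest pair, identical at 70.1% of 244 aligned bases, and share the 28 coding bases GCTGGGACAGAAAGAACAACCCAGAGCC. Over whole annotated transcripts, no pair shared more than 33 bases in a row.

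Levels are given in FPKM, the fragments counted for a gene scaled by the length of its gene model and by a depth shared by both libraries. Log2 ratios of FPKM therefore carry the 1.03 ratio of the read totals, and read ratios do not. Intervals are 95% exact counting intervals, which take no account of PCR duplication or of differences between cultures. In bulk RNA, fewer expressing cells and less RNA per cell cannot be told apart. In each pair 1 isoform held nearly all of the expression. In the control library these common isoforms were at 576 FPKM for Cox6a1 (563 to 589), 566 FPKM for Cox4i1 (557 to 575), 300.4 FPKM for Cox6b1 (291 to 310), 79.2 FPKM for Cox7a2 (75.1 to 83.5) and 71.4 FPKM for Ndufa4 (68.2 to 74.7). Their order was the same in the knockdown library, at 561, 513, 348, 95.9 and 72.4 FPKM. The intervals of Cox6a1 and Cox4i1 overlapped in the control library and did not in the knockdown library. The order rests on the length used: with the length of the principal coding transcript in place of the gene model, Cox4i1 (1147 in the control library) stood above Cox6a1 (708), and Ndufa4 (162) above Cox7a2 (113).

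**Figure D1:**
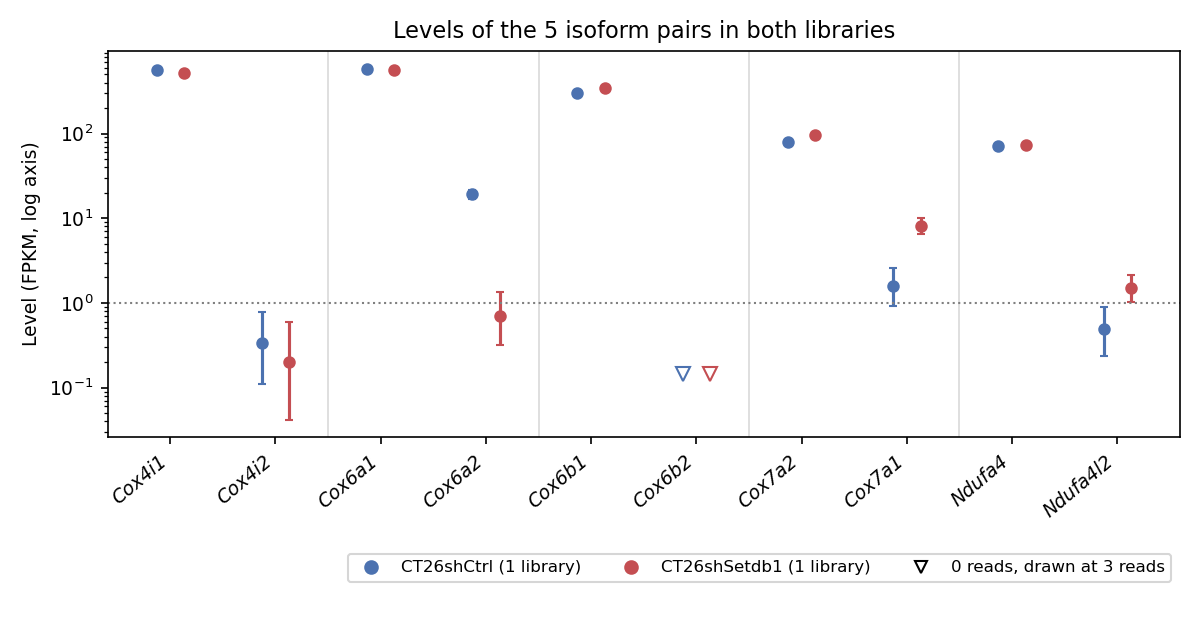
Levels of the 5 isoform pairs in FPKM on a log axis, in the control library (blue) and the knockdown library (red), with 95% counting intervals, where the dotted line is 1 FPKM. Common isoforms lie between 71.4 and 576 FPKM in both libraries, Cox6a2 is at 19.2 and 0.707 FPKM, Cox7a1 is higher in the knockdown library, and Cox6b2 had 0 reads and is drawn at 3 reads.

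The scarcer isoforms were at 19.2 FPKM for Cox6a2, 1.60 FPKM for Cox7a1, 0.488 FPKM for Ndufa4l2, 0.339 FPKM for Cox4i2 and 0 for Cox6b2 in the control library. In the knockdown library Cox7a1 was highest of them at 8.18 FPKM (6.51 to 10.2), above Ndufa4l2 at 1.51 FPKM (1.03 to 2.15) and Cox6a2 at 0.707 FPKM (0.323 to 1.34), whose intervals overlapped each other. Cox4i2 followed at 0.203 FPKM (0.0419 to 0.594), with an interval that overlapped that of Cox6a2. Cox6a2 was thus first of the scarcer isoforms in the control library and behind Cox7a1 and Ndufa4l2 in the knockdown library, and Cox6b2 was last in both.

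Ratios of knockdown to control are given as log2 of (FPKM + 1), which makes differences of weakly expressed genes look smaller than they are. Of the 10 genes, 8 reached 1 FPKM in at least 1 library, of which Ndufa4l2 did so only through the knockdown library and Cox6a2 only through the control library, in each case the library where the gene was high. Among these 8, 1 gene was at least 2-fold higher (Cox7a1), against 6.81% of the 10671 genes at this level, and 1 was at least 2-fold lower (Cox6a2), against 4.85%. The counting interval of the read ratio, taken relative to each library's own total, lay above 1 for 4 of the 8 and below 1 for 3, against 35.2% and 40.6% of all genes, so that it left out 1 for 7, against 75.8%. By sign alone 5 of the 8 were higher, against 49.6%. Since the genes were chosen on this contrast, nothing is read from these counts. The median log2 ratio of the 8 was 0.11, and that of all 10671 genes was -0.00039.

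Cox6a2, the muscle isoform of subunit 6A, a small regulatory subunit, had 245 reads (19.2 FPKM) in the control library and 9 reads (0.707 FPKM) in the knockdown library. The control library was the high one by far, with a log2 ratio of -3.57 and 28.1-fold fewer reads in the knockdown library relative to the totals (counting interval 14.6 to 62.3). Cox6a1, the isoform found in most tissues, had 7575 and 7382 reads, with -0.037 as log2 ratio and a read ratio of 0.943 (0.913 to 0.973). Cox6a2 therefore made up 3.23% of the FPKM of its pair in the control library (2.84 to 3.65) and 0.126% in the knockdown library (0.0575 to 0.238). Relative to Cox6a1, which removes the scaling of the libraries, the level of Cox6a2 was 26.5-fold lower (13.7 to 58.7). Cox6a2 occupies bases 128205435 to 128206387 of chromosome 7 in GRCm38, minus strand, inside the span of Itgad, an integrin gene on the opposite strand with 1 and 0 reads.

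Cox7a1, the muscle isoform of subunit 7A, differed in the opposite direction. It had 16 reads (1.60 FPKM) in the control library and 82 reads (8.18 FPKM) in the knockdown library. The knockdown library was the high one, by 1.82 on the log2 scale and with a read ratio of 4.96 (2.88 to 9.08). Cox7a2, the isoform of most other tissues, had 1401 and 1696 reads, for a log2 ratio of 0.27 (read ratio 1.17, interval 1.09 to 1.26). The share of Cox7a1 in its pair was 1.98% in the control library (1.14 to 3.18) and 7.86% in the knockdown library (6.32 to 9.63). Relative to Cox7a2, Cox7a1 was 4.23-fold higher (2.44 to 7.79). Both muscle isoforms thus had a log2 ratio beyond 1 in size, with opposite signs, while Cox8b, another muscle isoform of the complex, had 0 reads in both libraries.

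Since Cox6a2 and Cox7a1 are muscle isoforms, 22 markers of striated muscle were examined beside them. Of these, 15 had 0 reads in both libraries, among them the muscle regulators Myod1 and Myog, the creatine kinase Ckm and 5 of the 6 myosin heavy chains listed (Myh1, Myh2, Myh3, Myh4 and Myh6). Only Des and Tnnc1 reached 1 FPKM, with log2 ratios of 0.40 and 0.43. The summed reads of the list were 128 in the control and 203 in the knockdown library, mostly from Des (69 and 113 reads) and Tnnc1 (53 and 78 reads). The sum was thus higher in the library where Cox7a1 was high and Cox6a2 low, and the part of such cells in either difference was not tested.

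**Figure D2:**
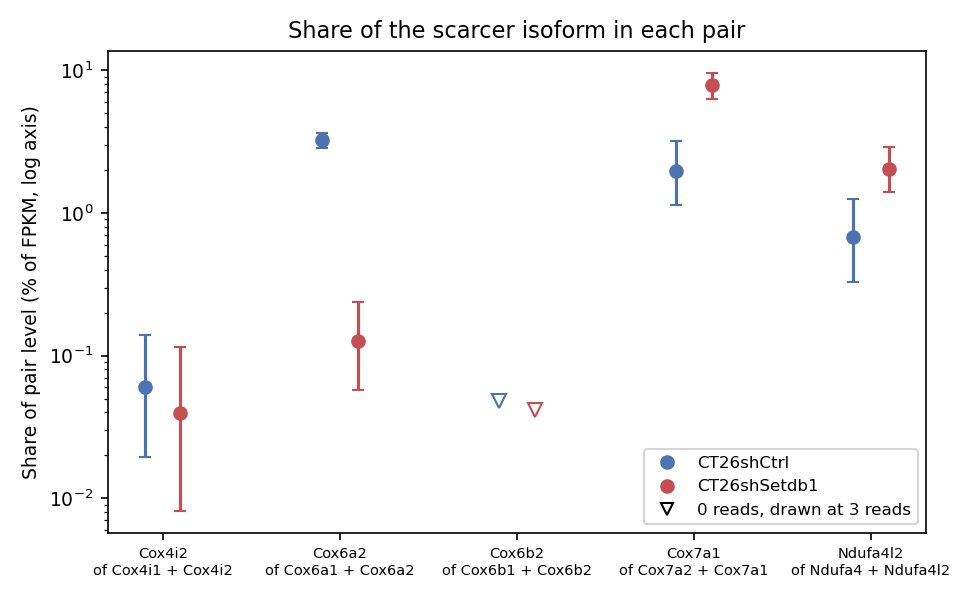
Share of the scarcer isoform in the summed FPKM of its pair, in percent on a log axis, in the control library (blue) and the knockdown library (red), with 95% exact binomial intervals carried over to the share per length. Cox6a2 is at 3.23% and 0.126%, Cox7a1 at 1.98% and 7.86% and Ndufa4l2 at 0.678% and 2.05%, and Cox6b2 had 0 reads and is drawn at 3 reads.

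Ndufa4l2, whose product is known to lower complex I activity under low oxygen, had 10 reads (0.488 FPKM) in the control library and 31 reads (1.51 FPKM) in the knockdown library. The read ratio was 3.0 (1.43 to 6.86) and the log2 ratio of (FPKM + 1) was 0.76, under the 2-fold threshold. Ndufa4 had 1847 and 1872 reads, and its read ratio of 0.980 (0.919 to 1.05) had an interval that included 1. Its log2 ratio of 0.019 was below 0 under 3 of the 4 other scalings and on log2(CPM + 1). The share of Ndufa4l2 in the pair was 0.678% in the control library (0.326 to 1.24) and 2.05% in the knockdown library (1.40 to 2.89), and relative to Ndufa4 it was 3.06-fold higher (1.46 to 7.01). The last 32 bases of the Ndufa4l2 gene model on chromosome 10 (127514967 to 127517154) overlap Shmt2, a mitochondrial serine hydroxymethyltransferase on the opposite strand, which had 17789 and 4620 reads. Whether counting used strand is not given in the sources used here, and the share of these reads within the overlap was not tested.

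Cox4i2, the oxygen-regulated isoform of subunit 4, was barely detected, with 5 control and 3 knockdown reads. Its read ratio of 0.580 had a counting interval of 0.0901 to 2.98, so a difference was not detectable at this depth. Cox4i1, the common isoform of this regulatory subunit, had 16436 and 14903 reads, for a log2 ratio of -0.14 (read ratio 0.877, interval 0.858 to 0.897). Cox4i2 made up 0.0598% of its pair in the control library (0.0194 to 0.139) and 0.0396% in the knockdown library (0.00816 to 0.116). For Cox6b2 a count of 0 allows up to 3 reads, which is 0.145 FPKM, or 0.0481% of its pair in the control and 0.0416% in the knockdown library. Cox6b1, the common isoform of subunit 6B on the outer face of the complex, had 3984 and 4611 reads and a read ratio of 1.12 (1.07 to 1.17). Of 7 testis genes listed beside Cox6b2, 6 had 0 reads in both libraries and Gapdhs had 6 and 10.

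Cox4i2 and Ndufa4l2 are also known as markers of pericytes, the contractile cells around small vessels. Of 10 pericyte and mural cell markers, only Pdgfrb reached 1 FPKM, with 1381 and 1493 reads. The markers Rgs5, Kcnj8, Abcc9 and Mcam had 0 reads in both libraries, and each of the other 5 had between 0 and 21 reads in either library.

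**Figure D3:**
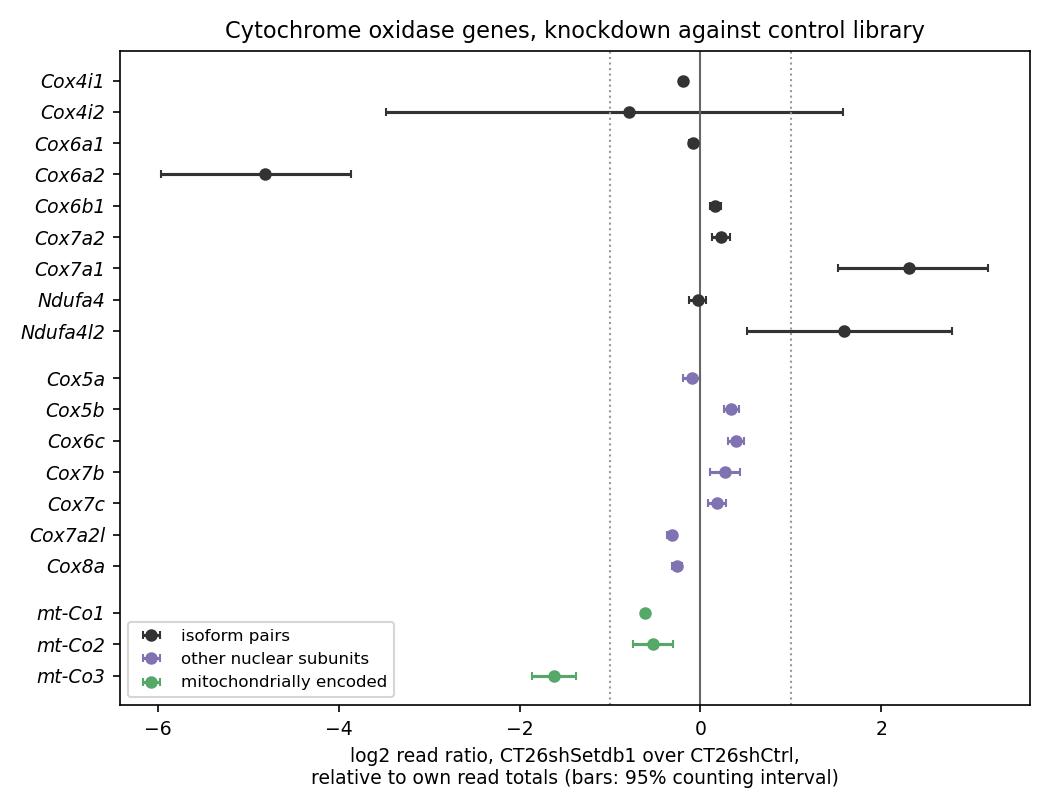
Log2 ratio of reads, knockdown over control and relative to each library's own total, with 95% counting intervals, for the isoform pairs (black), the other nuclear subunits (purple) and the mitochondrially encoded subunits (green), where dotted lines mark a 2-fold difference. Cox6a2 and Cox7a1 lie on opposite sides, the interval of Cox4i2 spans 0, and Cox6b2 is not drawn because it had 0 reads.

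The remaining subunits of the complex were set beside the pairs. Of 7 other nuclear subunits, 4 were higher with the knockdown (49.6% of all genes) and 3 lower, none of them 2-fold. Their median log2 ratio of 0.23 was 0.12 as a mean. They ran from -0.27 for Cox7a2l, a relative of Cox7a2 that joins complexes III and IV in supercomplexes (6583 and 5453 reads), to 0.43 for Cox6c (1965 and 2670 reads). The 5 common isoforms, from -0.14 to 0.27, lay within this range. The mitochondrially encoded catalytic subunits were all lower in the knockdown library, mt-Co1 with a log2 ratio of -0.57 (108084 and 72906 reads), mt-Co2 with -0.46 (401 and 289 reads) and mt-Co3 with -1.50 (564 and 190 reads). Mitochondrial genes have near-identical copies in the nuclear genome, so the way the authors' counting treated shared reads could affect these 3 values. The other tissue-restricted isoforms, Cox7b2, Cox8b and Cox8c, had 0 reads in both libraries.

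**Figure D4:**
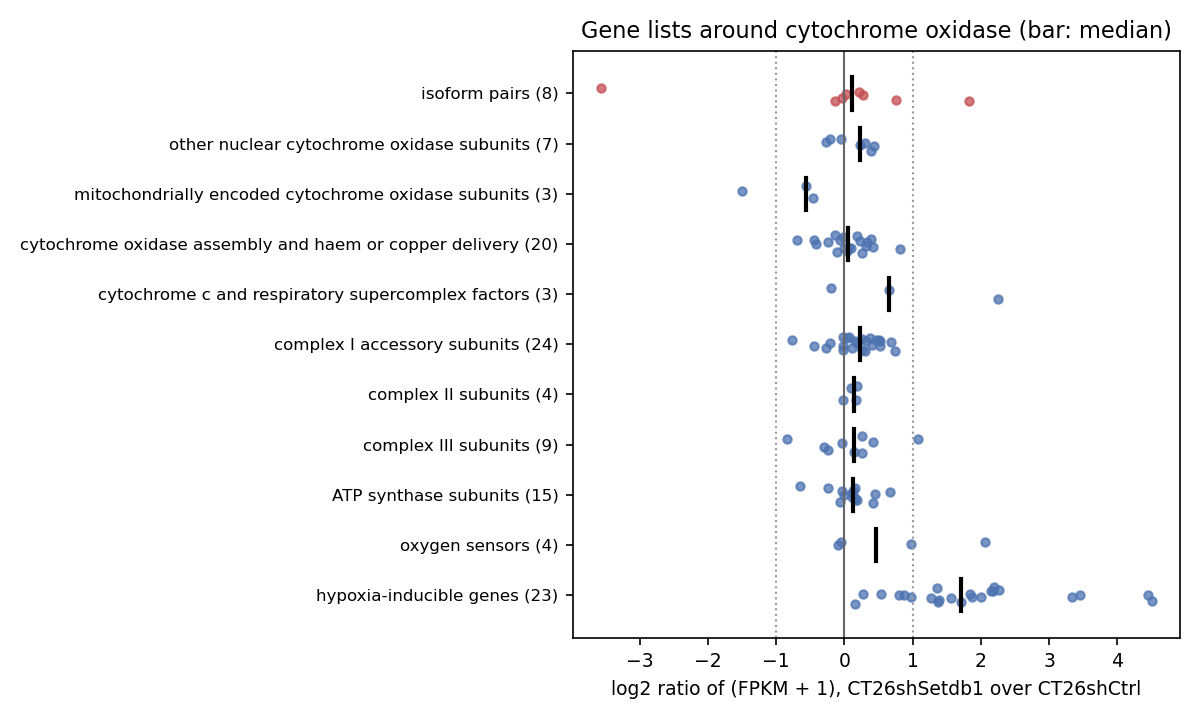
Log2 ratio of (FPKM + 1), knockdown over control, for each gene that reached 1 FPKM, by gene list with the number of such genes in parentheses, where black bars are medians and dotted lines mark a 2-fold difference. The isoform pairs (red) run from -3.57 to 1.82 around a median of 0.11, the other nuclear subunits stay between -0.27 and 0.43, and hypoxia-inducible genes have a median of 1.72.

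The isoforms induced by low oxygen were then read beside other oxygen-linked genes. Of 26 genes listed as hypoxia-inducible, a list drawn up when high ratios of some of them were already known, 23 reached 1 FPKM, all 23 were higher with the knockdown (49.6% of all genes) and 17 at least 2-fold (6.81% of all genes), with a median log2 ratio of 1.72. Car9 (0.695 and 37.7 FPKM) and Ankrd37 (0.416 and 29.9 FPKM) passed only through the knockdown library, where they were high. They ran from 0.15 for Vegfa, the endothelial growth factor, to 4.51 for Car9, a carbonic anhydrase. Beside them, Ndufa4l2 had 10 and 31 reads, with an interval of the read ratio above 1, and Cox4i2 had 5 and 3, too few to detect a difference. Higd1a, a HIF-1 target whose product binds complex IV, went from 7.97 to 41.7 FPKM, a log2 ratio of 2.25, whereas its relative Higd2a was at -0.20 and Cycs, which encodes cytochrome c, at 0.66. Of 5 genes listed for oxygen sensing, Egln1, a prolyl hydroxylase that marks HIF for degradation, had the highest log2 ratio at 2.06 (27.7 and 119 FPKM). Vhl was at 0.98, Egln2 at -0.045 and Hif1an at -0.087, and Egln3 had 0 and 2 reads.

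The exchange of Cox4i1 for Cox4i2 under low oxygen is known to involve the protease Lonp1, which degrades the Cox4i1 protein, and the factors Rbpj, Chchd2 and Cxxc5 at the Cox4i2 promoter. Lonp1 was at 223 and 148 FPKM, or -0.59 on the log2 scale. Rbpj was lower at -1.06 (15.5 and 6.89 FPKM), while Chchd2 was at 0.69 (106 and 172 FPKM) and Cxxc5 at 1.43 (1.65 and 6.11 FPKM). The HIF subunit genes Hif1a and Arnt were at -0.57 and 0.40, and Epas1 had 0 reads in both libraries. These 6 detected genes had a median of -0.082, with 3 higher and 3 lower, and their mean was 0.050.

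Assembly factors of the complex, which deliver haem and copper or hold subunits during assembly, were listed next. Of these 25 genes, 20 reached 1 FPKM, of which 12 were higher (49.6% of all genes) and 8 lower with the knockdown. None differed 2-fold, and the median log2 ratio was 0.055. The lowest was Cox10, a haem synthesis enzyme, at -0.69 (737 and 436 reads), and the highest was Cmc2 at 0.82 (556 and 1010 reads). Among the 5 below 1 FPKM, Cox20 had 5 and 16 reads, a read ratio of 3.10 (1.08 to 10.8).

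RefSeq promoter sequences (GRCm38.p6), 250 bases before to 50 bases after the start site, were found for 6 of the 10 genes and not for Cox4i1, Cox4i2, Cox6a2 and Ndufa4l2. The promoter of Cox7a1, on the plus strand at chr7:30183921-30184220, is shown because Cox7a1 was the 1 gene that was at least 2-fold higher. Capitals mark its 1 match to ACGTG, which is 1 form of the core of the HIF binding motif. The match lies on the opposite strand and is printed as its reverse complement.
Cox7a1 promoter: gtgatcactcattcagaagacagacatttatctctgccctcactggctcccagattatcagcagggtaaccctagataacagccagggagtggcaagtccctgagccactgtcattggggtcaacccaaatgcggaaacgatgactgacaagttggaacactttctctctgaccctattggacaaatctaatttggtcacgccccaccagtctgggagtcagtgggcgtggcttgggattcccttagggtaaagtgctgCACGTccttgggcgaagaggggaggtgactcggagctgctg
This match starts at base 10 after the start site, none of the other 5 promoters held ACGTG, and 19.6% of the 32851 promoters in the table did. The other form of the core, GCGTG, was not counted over all promoters. On either strand it occurs in the promoters of Cox7a1, Cox6b1, Ndufa4 and Cox7a2, so a HIF core is not particular to Cox7a1. On either strand, the NRF1 motif was present in the Cox6a1 promoter only, against 4.60% of all promoters, and CCGGAAG, an ETS-type motif, in those of Cox6a1 and Cox6b1, against 8.86%. The RBPJ motif letters GTGGGAA were in none of the 6, against 6.38%, and the E-box CANNTG, which can overlap ACGTG, was in 3 of the 6 (Cox7a1, Cox6b1 and Cox7a2), against 72.3%. A match describes these letters and no binding was measured.

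By position, 4 of the 10 genes lie on chromosome 7. Cox7a1 (30184144 to 30186078) and Cox6b1 (30616861 to 30626151) are 430783 bases apart there, with log2 ratios of 1.82 and 0.21, and Cox6b2 lies at 4751792 to 4753094. Cox4i2 lies on chromosome 2 (152754173 to 152765037) and Ndufa4 on chromosome 6 (11900292 to 11907497), and no neighbour of either reached 1 FPKM. Among genes that overlap a member or are its nearest neighbour, 6 reached 1 FPKM. Capns1, 858 bases from Cox7a1 and coding for the small calpain subunit, was at -0.12 (16926 and 15606 reads), and Gm5113 on its other side had 32 and 28 reads. Emc8, which overlaps the start of Cox4i1 (chromosome 8, 120668222 to 120674207) by 352 bases on the opposite strand, had a log2 ratio of -0.16 beside -0.14 for Cox4i1. Triap1 near Cox6a1 (chromosome 5, 115345642 to 115348981) was at -0.13 and Tmem30a near Cox7a2 (chromosome 9, 79755361 to 79759878) at -0.026. Kmt5c, a histone H4 methyltransferase gene on the lower-coordinate side of the undetected Cox6b2, was at 0.90 with 400 and 814 reads. Neither of the nearest neighbours of Cox6a2 reached 1 FPKM: 4931431B13Rik had 7 and 0 reads and Gm44850 had 0 in both libraries.

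Pseudogenes could take reads from the common isoforms. In the deposited table, loci with the same Swiss-Prot match numbered 4 beside Ndufa4 and 1 each beside Cox4i1, Cox6b1 and Cox7a2, and none beside the other 6 genes. These loci had 0 reads in both libraries except the one beside Cox7a2, which had 4 in each. Loci whose description names no Swiss-Prot match were not covered. These counts also depend on how the authors' counting treated shared reads, so whether pseudogenes took reads from the common isoforms was not tested.

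With 2 libraries, likeness of pattern is only closeness of both levels on the log2(FPKM + 1) scale. The protein-coding genes nearest to Cox7a1 were E2f2 (1.40 and 8.54 FPKM), Ier5l (1.89 and 8.12 FPKM) and Uba7 (1.89 and 7.31 FPKM). Those nearest to Cox6a2 were Atp2a3 (20.6 and 0.243 FPKM), P2rx3 (27.5 and 1.34 FPKM) and Fbln5 (10.7 and 1.11 FPKM).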

How the data were processed

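RNA of 2 libraries, 1 per group, was sequenced, and groups and columns were matched by the library names in the labels. The authors deposited FPKM values per gene with gene lengths and positions. CASAVA, HISAT2, featureCounts 1.5.0-p3 and the build GRCm38 are named, per the submitters' processing notes, while the strand setting and read length are not given in the sources used here. Of 54409 gene IDs found in GENCODE M21, 98.3% had the same start and end, including all 10 genes described.

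Multiplying FPKM by gene length and dividing by 1 shared factor gave back reads, whole within 0.01 reads for 100% of values above 0. That factor stands for 18731117 reads in both columns, so the log2 ratios carry the 1.03 ratio of the totals, and read ratios do not. With 1 library per group no test was possible and no p-value is given. Genes that reached 1 FPKM in either library entered lists and counts, with a pseudocount of 1 and a 2-fold threshold, and a count of 0 was given a limit of 3 reads. Intervals on read ratios and shares are exact binomial (Clopper-Pearson), those on levels exact Poisson, and those on the ratio of 2 read ratios exact conditional. For a symbol found at several loci the values come from the one with most reads, and 1 listed gene, Ero1a, was found by its RefSeq synonym. Coding sequences were aligned globally, and identity was counted over gapless columns. The members and the 19 lists were chosen with earlier results of these data known. Named genes were all 10 members, Setdb1, the extremes of each list with 5 or more genes at 1 FPKM (all detected genes of shorter lists), neighbours at 1 FPKM, and the 3 nearest patterns. Others were named after their values were seen. Of the calculations, only the log2 ratio and the counting interval of the read ratio were tried on simulated counts. Those counts held counting error alone, so differences between cultures were not covered. Biopython 1.88, matplotlib 3.10.9, scipy 1.17.1, pandas 2.3.3 and numpy 2.4.6 ran under Python 3.11.15. No protein sequences were used here, so protein identity was not analysed here.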

Additional observations from a re-analysis of the deposited data

How the results depend on the processing

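Of 261 alternative values, 27 moved beyond counting error (for counts, beyond 1.5 times), 234 did not and 0 reversed. Some of the 234 could not move. Cox6b2 had 0 reads in both libraries, and adding loci with the same Swiss-Prot match added reads only for Cox7a2. Alternatives based on transcript lengths were chosen after seeing the data. Across pseudocounts and scalings, Cox6a2 stayed between -4.58 (pseudocount 0.1) and -3.28, Cox7a1 between 1.51 and 2.29, and Ndufa4l2 between 0.72 and 1.46. Ndufa4, near 0, was below it on log2(CPM + 1) and when scaled by own totals, by the upper quartile or without the 100 highest genes, down to -0.032. Cox4i1 was at -0.19 on log2(CPM + 1), -0.19 with own totals, -0.19 with the upper quartile and -0.18 without the 100 highest genes, and Cox6a1 at -0.085, -0.085 and -0.089 under the first 3. Members at least 2-fold higher were 2 at a 1.5-fold threshold, 0 at 4-fold and 2 with a pseudocount of 0.1. The difference between Cox6a2 and Cox6a1 was -4.73 as a ratio of read ratios, against -3.53, because no pseudocount is added.

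The Cox6a2 share was 2.64% in the control library by transcript length. The Cox7a1 share was 1.13% and 4.61% in the control and knockdown libraries when reads were not divided by length, and the Ndufa4l2 share was 1.07% in the knockdown library by transcript length. Among the list medians, other nuclear subunits were at 0.12 as a mean. Mitochondrially encoded subunits were at -0.84 as a mean, -0.62 on log2(CPM + 1), -0.62 with own totals, -0.62 with the upper quartile and -0.61 without the 100 highest genes. Without a filter the median was 0 for cytochrome c and supercomplex factors (0.90 as a mean). Also without a filter, it was 0.057 for oxygen-sensing genes (0.73 as a mean), 1.48 for hypoxia-inducible genes and 0 for immune and endothelial markers. Some medians counted as not moved also changed in size. The median of colonic epithelial markers, 1.30, was 0.033 without a filter and 2.79 with a pseudocount of 0.1. That of striated muscle markers, 0.41, was 0 without a filter. The biogenesis regulator median, 0.00033, lay below 0 under 6 of 9 alternatives. Scaling by own totals, by the upper quartile and without the 100 highest genes shifts the log2 ratio of every well-expressed gene by about -0.048, -0.052 and -0.041. Apart from these shifts and the pseudocount, the cause was not tested.

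No paired analysis was possible because the groups hold 1 library apiece, and no library was left out. Depth limits Cox4i2, Cox6b2, Ndufa4l2 and Cox7a1, which had at most 16 reads in the control library. It also limits Cox6a2, which had 9 reads in the knockdown library.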

Other observations

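Listed nuclear-encoded subunits of the other respiratory complexes were read on the same scale, and the mitochondrially encoded subunits of these complexes were not listed. All 24 listed accessory subunits of complex I reached 1 FPKM, 17 were higher with the knockdown and 7 lower, none of them 2-fold. Of all genes at 1 FPKM or more, 49.6% were higher. The median log2 ratio of these subunits was 0.23, with a range from -0.77 for Ndufa6 to 0.74 for Ndufa12. The 4 subunits of complex II had a median of 0.14, from -0.023 for Sdha to 0.19 for Sdhd. Of 9 listed complex III subunits, 5 were higher and 4 lower. They ran from -0.84 for Uqcrq, which went from 137 to 76.3 FPKM, to 1.08 for Uqcrb. Uqcrb went from 16.0 to 34.8 FPKM and was the 1 listed subunit that differed 2-fold. The 15 listed ATP synthase subunits had a median of 0.13, from -0.65 for Atp5g1 to 0.67 for Atp5k.

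Among 9 regulators of mitochondrial biogenesis, 8 reached 1 FPKM, from -0.85 for Pprc1 to 1.02 for Esrra, the oestrogen-related receptor alpha. Of 8 immune and endothelial markers, 6 had 0 reads in both libraries and Ptprc had 0 and 4, while Cd68, which encodes a lysosomal protein, went from 245 to 2360 reads.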
